A study of Mus musculus with 8 samples.

Results

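The 8 genes described here mark the mural, mesangial and renin-producing cells of the kidney: Ren1, Tagln, Rgs5, Notch3, Des, Cspg4, Mcam and Gata3. They were taken by symbol from the deposited gene lines that held all 8 counts, and all 8 were found among 17326 such lines and passed the filter on low counts, which left 16477 genes. RNA had been sequenced from mouse glomerular cells sorted by flow cytometry as endothelium or as podocytes, from EMCN+/+ (wild-type) or EMCN-/- (Emcn knockout) mice, so that 8 libraries formed 4 groups of 2, numbered 2 and 3. The age, sex and strain of the mice, the sorting markers, the way the knockout was made and whether mice were pooled were not given in the sources used here. The depth, summed over the complete lines, ran from 10478956 to 17386042 counts a library. Nothing in the labels says that the 2 libraries of a group came from separate animals, so the p-values measure the spread between these libraries, which may be technical.

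Mesangial cells are the contractile, pericyte-like cells that hold the glomerular capillary loops together from inside the tuft. Renin cells sit in the wall of the arteriole that enters the tuft and release the protease that starts the angiotensin cascade, and renin, mesangial and arteriolar smooth muscle cells share a common stromal lineage. Neither the endothelial nor the podocyte sort aims at these cells, so the question asked of the 8 genes was which sorted population carried them and whether Emcn loss changed that.

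On the mm10 (GRCm38) assembly, Ren1 (Entrez 19701) lies at chr1:133350674-133360320, Rgs5 (Entrez 19737) at chr1:169655501-169695813 and Des (Entrez 13346) at chr1:75360292-75368579. Tagln (Entrez 21345) lies at chr9:45929628-45936058, Cspg4 (Entrez 121021) at chr9:56865104-56899870 and Mcam (Entrez 84004) at chr9:44134658-44142727. Notch3 (Entrez 18131) lies at chr17:32120820-32166896 and Gata3 (Entrez 14462) at chr2:9857078-9887953. Each value below is for the whole gene, since counts were given per gene and not per exon. The annotated exons of Tagln overlap those of Pcsk7 and Gm48529 on the other strand. Exons of Des, Notch3 and Gata3 overlap those of Gm15179, Gm17276 and Gm13256. The use of strand in counting was not given in the sources used here, so reads in those overlaps are uncertain.

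Promoter sequences (RefSeq, GRCm38.p6) were matched for 7 of the 8 genes, all but Tagln. Those of Ren1 and Mcam are shown because these genes stood on opposite sides of the comparison between the sorts. Each line gives the 250 bases before the annotated start, 5′ to 3′ on the plus strand, from chr1:133350424-133350673 for Ren1 and chr9:44134408-44134657 for Mcam. Capitals mark TATAAA and TGACGTCA, the letters of a TATA box and of a cAMP response element.
Ren1: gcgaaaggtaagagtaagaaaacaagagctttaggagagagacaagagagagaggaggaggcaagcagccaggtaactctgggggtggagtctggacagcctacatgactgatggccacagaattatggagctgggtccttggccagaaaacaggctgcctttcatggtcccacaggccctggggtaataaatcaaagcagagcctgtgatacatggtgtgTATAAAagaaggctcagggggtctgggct
Mcam: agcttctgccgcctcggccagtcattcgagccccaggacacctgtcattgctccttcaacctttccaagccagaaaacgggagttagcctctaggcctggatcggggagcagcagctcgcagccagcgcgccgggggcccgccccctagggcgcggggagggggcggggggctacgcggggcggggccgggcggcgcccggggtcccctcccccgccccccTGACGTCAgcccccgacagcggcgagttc
The TATAAA of Ren1 begins 29 bases before the start, and such a match on either strand occurred in 12.4% of all 32851 windows of the same length. The TGACGTCA of Mcam, which reads the same on both strands and overlaps no other match, also begins 29 bases before the start, and 1.55% of windows held one. Searches of both strands for AGATAA, a motif of GATA factors (9.99% of windows), matched Rgs5 alone among the 7 genes, at 238 to 233 bases before its start. TGGGAA, the core of the RBPJ motif of Notch signalling (21.6% of windows), and the CArG box of smooth muscle genes (1.47%) matched none of the 7 windows. A match describes letters only and shows no binding.

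The labels were checked first. Emcn stood at 1972 and 1828 CPM (a gene's counts relative to the total of its library, after edgeR's TMM scaling) in wild-type endothelium and at 173 and 179 CPM in knockout endothelium (log2 fold change −3.43, SE 0.35, edgeR adjusted p = 0.0205). All 10 endothelial markers tested were higher in the endothelial sort and all 6 tested podocyte markers were higher in the podocyte sort. The podocyte marker Nphs1 stood on an incomplete line and was not analysed here. Markers of the tubule were present in every library: the sum of 7 distal tubule and collecting duct genes ran from 3026 to 16330 CPM, and that of 5 proximal tubule genes from 207 to 2143 CPM. Sums of 4 immune markers ran from 25.8 to 119.7 CPM, and Csf1r alone made 67.9 to 106.9 CPM in the podocyte libraries. The 4 tested fibroblast markers summed to between 1048 and 1205 CPM in endothelial libraries, of which Pi16 made 1025 to 1183 CPM, and to between 39.8 and 62.8 CPM in podocyte libraries. Dcn and Lum, defining fibroblast genes, stood at up to 29.8 and 3.49 CPM.

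In the comparison of both endothelial with both podocyte groups, 4 genes were lower in endothelium (Ren1, Tagln, Des and Cspg4), 1 was higher (Mcam), and Rgs5, Notch3 and Gata3 did not pass the threshold of an edgeR quasi-likelihood adjusted p of 0.05. Over all 16477 genes tested, 11.1% were lower and 7.19% higher in endothelium by the same rule, 18.3% in all. The median log2 difference of the 8 genes was −0.98, beside 0 over all genes tested. Lists of other cells had medians on that side too: −0.98 for 6 parietal epithelial genes (4 passed lower), −0.71 for 5 proximal tubule genes (2 lower), −0.49 for 7 distal tubule and collecting duct genes (0 passed) and −0.55 for 17 dissociation genes, the immediate-early and heat shock genes that cell isolation can induce (8 lower). The medians of 4 fibroblast genes (0.99, 1 passed higher) and 4 immune genes (0.67, 1 higher and 1 lower) lay on the other side. Their part in the difference was not tested. In bulk libraries of sorted cells, more cells of a type and more RNA per cell cannot be told apart. Within wild type 2 of the 8 genes passed where 8.99% of all genes did: Tagln was lower in endothelium, as were 4.73% of all genes, and Mcam higher, as were 4.26%. Within knockout Tagln and Mcam were again the 2 that passed, where 10.4% of all genes did, 6.09% lower and 4.28% higher. At an unadjusted p under 0.05, edgeR counted 7 of the 8 over both genotypes, where 30.0% of all genes were, 5 of 8 within wild type (19.6% of all genes) and 6 of 8 within knockout (22.9%).

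The ranges of the sorts showed the same sides. Over both genotypes, all 4 endothelial libraries lay below all 4 podocyte ones for Tagln and Des, where 12.3% of all genes did, and above them for Mcam, where 9.59% did. Within wild type the endothelial libraries lay below the podocyte ones for Tagln, Rgs5, Des, Cspg4 and Gata3 (25.7% of all genes) and above for Mcam (21.2%). Within knockout they lay below for Ren1, Tagln, Rgs5, Notch3, Des and Cspg4 (27.8% of all genes) and above for Mcam (27.3%).

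**Figure D1:**
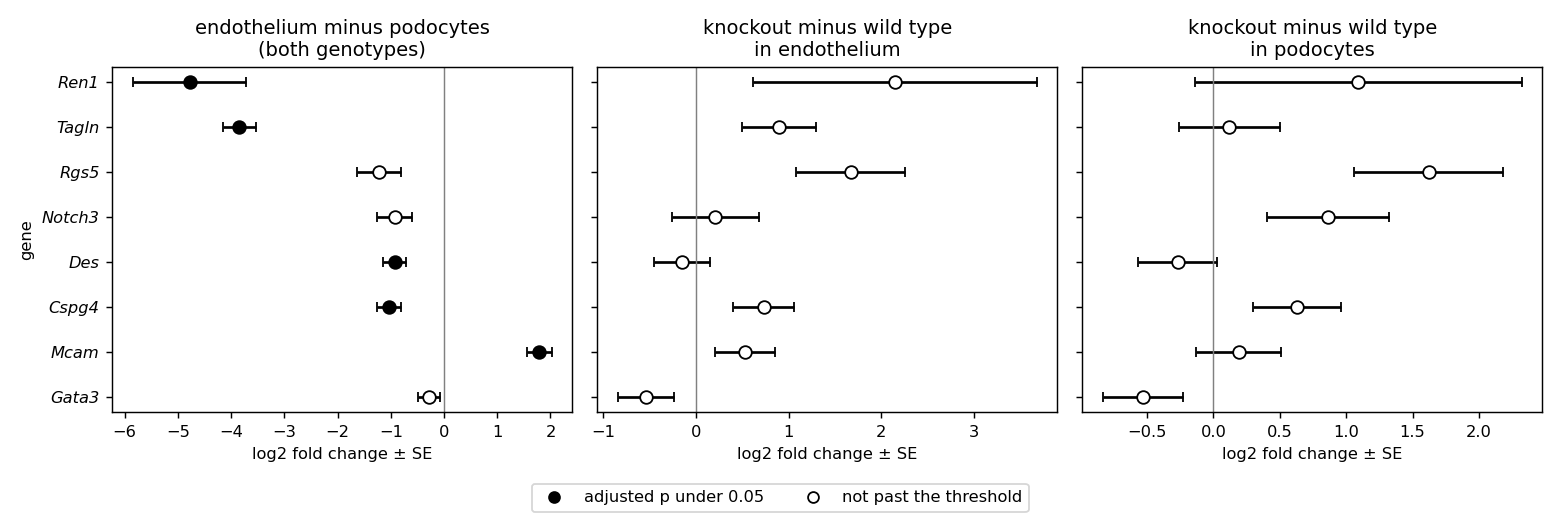
Log2 fold changes with standard errors for the 8 genes, from the edgeR fit, for endothelium minus podocytes (left) and knockout minus wild type in endothelium (middle) and podocytes (right), with filled points past an adjusted p of 0.05 and the 3 horizontal axes on different scales. In the left panel Ren1, Tagln, Des and Cspg4 lie below 0 and Mcam above it with filled points; in the other panels every point is open.

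Ren1 encodes renin. Wild-type podocytes held 1.82 CPM (28 counts) in replicate 2 and 104 CPM (1433 counts) in replicate 3, and knockout podocytes held 195 CPM (3145 counts) and 29.3 CPM (397 counts). Wild-type endothelium held 0.380 CPM (5 counts) and 2.24 CPM (31 counts), and knockout endothelium 6.91 CPM (98 counts) and 4.82 CPM (56 counts). So 3 of the 4 podocyte libraries lay above every endothelial one, and the wild-type podocyte library of replicate 2 lay below 3 of the 4 endothelial ones. Endothelium was lower by a log2 fold change of −4.78 (SE 1.06, edgeR adjusted p = 0.00951), and over 17 alternative fits the adjusted p ran from 8.1e-04 to 0.147. Without replicate 3 of wild-type podocytes the value was −2.36 (edgeR adjusted p = 0.0573), and limma voom with sample quality weights gave −3.69 (adjusted p = 0.147).

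Ren1 also varied most between replicates among the 8 genes. The wild-type podocyte libraries differed 57.3-fold and the knockout ones 6.67-fold. The pooled standard deviation of its log2 CPM within groups was 2.38, against a median of 0.42 over all genes, and only 2 of the 16477 genes had a larger one. The other 7 genes had values between 0.36 (Des) and 0.61 (Notch3). Miox, a proximal tubule enzyme, also varied among the podocyte libraries, at 101 and 355 CPM in wild type and 829 and 76.6 CPM in knockout. The library with the most Ren1 was thus also the one with the most Miox, and the part of tubule RNA in the Ren1 values was not tested. Some mouse strains carry a near-identical second gene, Ren2, whose reads can be counted as Ren1, and the strain was not given in the sources used here.

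Other genes of the renin-angiotensin system split between the sorts. Of the 13 listed genes 5 stood on complete lines, and of these 3 passed lower in endothelium, Ren1 and Enpep among them, and 1 higher (Ace). Among all genes 11.1% passed lower and 7.19% higher. Enpep, the aminopeptidase that trims angiotensin II, ran from 1721 to 3574 CPM in podocyte libraries and from 109 to 393 CPM in endothelial ones, a log2 fold change of −3.23 (SE 0.37, edgeR adjusted p = 1.2e-04). Ace, the angiotensin-converting enzyme of endothelial surfaces, was higher there by 2.14 (SE 0.35, edgeR adjusted p = 0.00161). Mas1, a receptor for an angiotensin fragment, had a log2 difference of 1.22 that did not pass (SE 0.98, edgeR adjusted p = 0.459). The listed genes Agt, Agtr1a, Akr1b7 and 5 others stood on incomplete lines and were not analysed here.

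**Figure D2:**
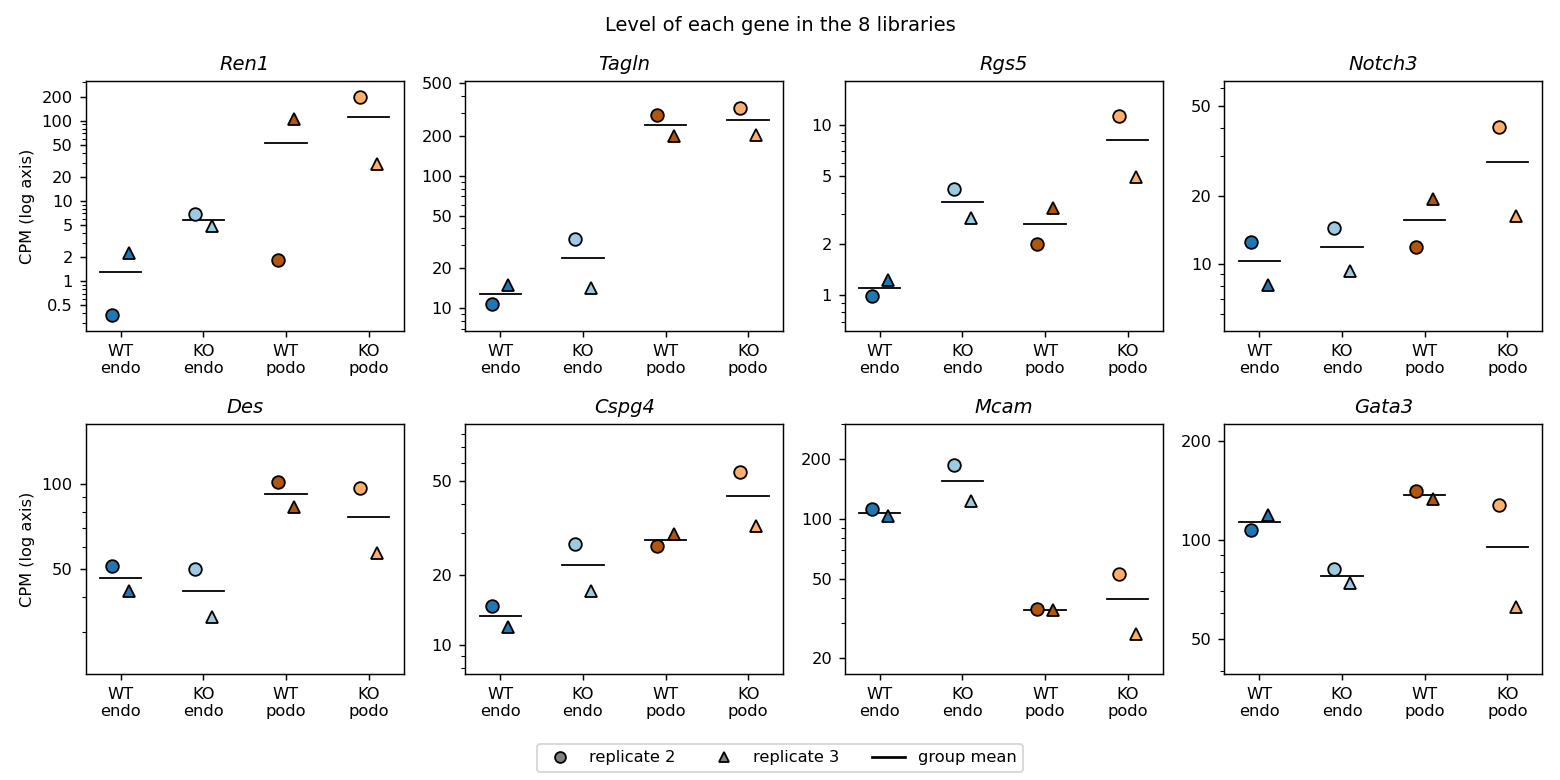
CPM of each of the 8 genes in the 8 libraries on a log axis, with circles for replicate 2, triangles for replicate 3 and a line at each group mean; the vertical scale differs between panels. Every podocyte point of Tagln (199.9 CPM or more) lies above every endothelial one (33.4 CPM or less), Mcam is highest in endothelium, and the 2 wild-type podocyte libraries of Ren1 lie at 1.82 and 104 CPM.

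Tagln encodes transgelin, an actin-binding protein of smooth muscle. It stood at 286 and 199.9 CPM in wild-type and 325 and 202 CPM in knockout podocytes. Endothelial libraries held 10.7 and 14.9 CPM in wild type and 33.4 and 14.3 CPM in knockout. Every podocyte library therefore lay above every endothelial one. The difference was 14.4-fold (log2 fold change −3.85, SE 0.31, edgeR adjusted p = 1.1e-05), and it passed in each of 17 alternative fits, with adjusted p-values up to 1.4e-04. Pcsk7, whose exons overlap those of Tagln, ran from 59.3 to 83.3 CPM in podocyte and from 78.0 to 109 CPM in endothelial libraries, ranges that overlap. The part of overlapping reads in the Tagln counts was not tested.

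Of 18 listed contractile genes 11 stood on complete lines, and 4 of the 11 passed lower in endothelium (Tagln, Des, Srf and Smtn), 0 passed higher and 7 did not pass. By the same rule 11.1% of all genes passed lower and 7.19% higher. The median of the 11 was −0.80, beside 0 over all genes tested. Smtn, smoothelin, differed by −0.82 (SE 0.23, edgeR adjusted p = 0.0309) and Srf, the transcription factor of contractile genes, by −0.97 (SE 0.26, edgeR adjusted p = 0.0231). Cnn1, calponin, and Lmod1, leiomodin, both restricted to smooth muscle in most tissues, stayed at or below 7.95 and 4.66 CPM. Their highest values were both in replicate 2 of knockout podocytes. Acta2 and Myh11 stood on incomplete lines and were not analysed here.

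Des encodes desmin, the muscle intermediate filament that mesangial cells also hold. Podocyte libraries held 102 and 83.4 CPM in wild type and 96.7 and 57.2 CPM in knockout, and endothelial libraries 51.5 and 42.1 CPM in wild type and 50.2 and 34.0 CPM in knockout. The sorts did not overlap, and the difference was 1.90-fold (log2 fold change −0.93, SE 0.21, edgeR adjusted p = 0.0115). Without replicate 2 of wild-type podocytes the adjusted p was 0.0630, and with scaling by library size alone it was 0.0827. Among the filament partners, Nes (nestin, also a podocyte gene) was lower in endothelium by −2.10 (SE 0.26, edgeR adjusted p = 2.4e-04) and Vim (vimentin) by −0.95 (SE 0.26, edgeR adjusted p = 0.0270). Plec, plectin, which links filaments to junctions, had a log2 difference of 0.15 (SE 0.15, edgeR adjusted p = 0.581).

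Rgs5, Notch3 and Cspg4 are mural genes. Rgs5 encodes a regulator of G protein signalling that marks pericytes, Notch3 the Notch receptor of vascular smooth muscle and pericytes, and Cspg4 the NG2 proteoglycan of the pericyte surface. Rgs5 stood at 0.988 and 1.23 CPM in wild-type and 4.23 and 2.84 CPM in knockout endothelium, and at 2.01 and 3.27 CPM in wild-type and 11.3 and 4.94 CPM in knockout podocytes. Notch3 stood at 12.5 and 8.03 CPM in wild-type and 14.4 and 9.29 CPM in knockout endothelium, and at 11.9 and 19.5 CPM in wild-type and 40.4 and 16.4 CPM in knockout podocytes. Cspg4 stood at 14.7 and 12.01 CPM in wild-type and 27.1 and 17.1 CPM in knockout endothelium, and at 26.5 and 29.9 CPM in wild-type and 54.9 and 32.2 CPM in knockout podocytes. In each of the 3 genes the highest library was replicate 2 of knockout podocytes, and the sorts overlapped.

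Of these 3 genes, Cspg4 passed. It was 2.04-fold lower in endothelium (log2 fold change −1.03, SE 0.23, edgeR adjusted p = 0.0111), and 0.0727 with scaling by library size alone. Rgs5 differed by −1.22 (SE 0.41, edgeR adjusted p = 0.0639) and Notch3 by −0.93 (SE 0.33, edgeR adjusted p = 0.0787), each with an unadjusted p under 0.05. DESeq2 passed both, with adjusted p-values of 0.0353 and 0.0351, and so did edgeR without replicate 3 of knockout podocytes, at 0.0299 and 0.0152. Without replicate 2 of knockout podocytes the values were −0.86 for Rgs5 (edgeR adjusted p = 0.2695) and −0.54 for Notch3 (edgeR adjusted p = 0.3236). Rgs5 had between 13 and 182 counts per library, which limits its precision.

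Mcam encodes CD146, an adhesion molecule of endothelial cells as well as pericytes, and it was the 1 of the 8 genes that passed higher in endothelium. Endothelial libraries held 112 and 103 CPM in wild type and 188 and 124 CPM in knockout, and podocyte libraries 35.1 and 34.9 CPM in wild type and 53.2 and 26.4 CPM in knockout. Every endothelial library lay above every podocyte one. The difference was 3.47-fold (log2 fold change 1.79, SE 0.23, edgeR adjusted p = 3.1e-04), and it passed in each of 17 alternative fits, with adjusted p-values up to 0.00395. Within wild type it was 1.62 (SE 0.33, edgeR adjusted p = 0.00987), and this call was lost without either wild-type podocyte library (1.64, adjusted p = 0.106, without replicate 2 and 1.61, adjusted p = 0.0824, without replicate 3). Pecam1, a marker of all endothelium, held between 769 and 1039 CPM in endothelial and between 30.0 and 48.7 CPM in podocyte libraries.

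Of 16 listed pericyte genes 11 stood on complete lines, of which 3 passed lower in endothelium (Cspg4, Heyl and Foxs1), 1 higher (Mcam) and 7 did not pass, with a median of −0.93 beside 0 over all genes tested. The shares of all genes were 11.1% lower and 7.19% higher. Foxs1, a forkhead factor of perivascular cells, differed by −2.31 (SE 0.24, edgeR adjusted p = 7.5e-05), with 17.6 to 26.1 CPM in podocyte and 3.44 to 5.02 CPM in endothelial libraries. Heyl, a Notch target in mural cells, differed by −1.51 (SE 0.32, edgeR adjusted p = 0.00757) and was highest, at 54.4 CPM, in replicate 2 of knockout podocytes. Pdgfrb, the receptor that recruits pericytes and mesangial cells, and Kcnj8 and Abcc9, the pericyte potassium channel subunits, stood on incomplete lines and were not analysed here.

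The Notch pathway as a whole was divided between the sorts, and Notch3 was the 1 receptor that did not pass. Of 14 listed genes, all on complete lines, 6 were higher in endothelium, 3 lower, and 5 did not pass, where 7.19% of all genes passed higher and 11.1% lower. Among the receptors, Notch1 was higher by 1.91 (SE 0.25, edgeR adjusted p = 3.7e-04) and Notch4 by 2.48 (SE 0.39, edgeR adjusted p = 0.00116), while Notch2 was lower by −1.64 (SE 0.16, edgeR adjusted p = 5.3e-05). The ligands Jag2 and Dll4 were 15.5-fold and 15.4-fold higher in endothelium (edgeR adjusted p = 4.6e-06 and 1.6e-05). The targets Hey1 and Hey2 also stood higher there, with log2 differences of 3.35 (SE 0.32, edgeR adjusted p = 3.7e-05) and 1.53 (SE 0.33, edgeR adjusted p = 0.00807), and Rbpj, the DNA-binding partner of Notch, was lower by −0.73 (SE 0.19, edgeR adjusted p = 0.0190).

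Gata3 encodes the transcription factor that mesangial cells need and that the collecting duct also expresses. Endothelial libraries held 107 and 119 CPM in wild type and 81.4 and 74.0 CPM in knockout, and podocyte libraries 141 and 133 CPM in wild type and 128 and 62.3 CPM in knockout. The 2 sorts overlapped, with a log2 difference of −0.28 (SE 0.21, edgeR adjusted p = 0.423) that turned to 0.02 without replicate 2 of knockout podocytes. Aqp2, the collecting duct water channel, ran from 300.4 to 2142 CPM. Within wild-type endothelium Aqp2 stood at 437 and 2142 CPM beside 107 and 119 CPM of Gata3, and within knockout endothelium at 529 and 300.4 CPM beside 81.4 and 74.0 CPM. Within wild-type podocytes Aqp2 stood at 657 and 1204 CPM beside 141 and 133 CPM of Gata3, and within knockout podocytes at 1803 and 469 CPM beside 128 and 62.3 CPM. The library with more Aqp2 had more Gata3 in each pair but that of wild-type podocytes. The sum of the 7 distal tubule and collecting duct genes went with Gata3 in wild-type endothelium alone, at 7349 and 16330 CPM in replicates 2 and 3. It went the other way in knockout endothelium (3026 and 7030 CPM), wild-type podocytes (6180 and 13020 CPM) and knockout podocytes (6173 and 8679 CPM). The part of collecting duct RNA in the Gata3 level was not tested.

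**Figure D3:**
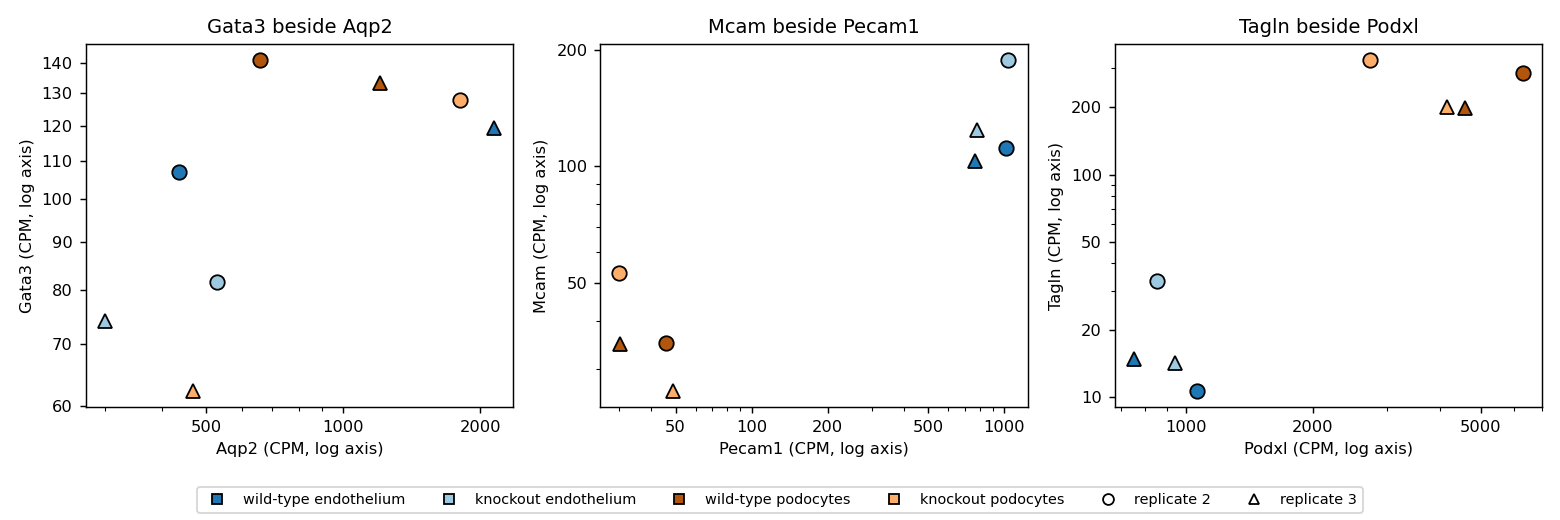
CPM of Gata3 beside Aqp2, Mcam beside Pecam1 and Tagln beside Podxl in the 8 libraries, on log axes, with color for the group and shape for the replicate number. Mcam and Pecam1 are both high in the 4 endothelial libraries and Tagln and Podxl in the 4 podocyte libraries, while Gata3 spans 62.3 to 141 CPM in libraries whose Aqp2 runs from 300.4 to 2142 CPM.

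Of 15 listed mesangial genes 11 stood on complete lines, 2 passed lower in endothelium (Des and Foxd1), 1 higher (Igfbp5) and 8 did not pass, with a median of −0.17 beside 0 over all genes tested. Beside them, 11.1% of all genes passed lower and 7.19% higher. Foxd1, a stromal progenitor factor that podocytes also express, differed by −3.13 (SE 0.44, edgeR adjusted p = 5.1e-04) at levels up to 10.3 CPM. Igfbp5, an insulin-like growth factor binding protein, had a log2 difference of 2.60 in favour of endothelium (SE 0.28, edgeR adjusted p = 8.4e-05). Itga8, the integrin chain that marks mesangial cells, ran from 170 to 482 CPM in endothelial and from 109.7 to 455 CPM in podocyte libraries, a log2 difference of −0.15 (SE 0.40, edgeR adjusted p = 0.857). The mesangial markers Ptn and Sfrp2 had log2 differences of −0.12 and −0.05.

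Levels could be compared between genes only per length, as CPM per kilobase of annotated exons. In wild-type endothelium Mcam (36.0 ± 2.01, SD, n = 2) and Gata3 (35.2 ± 2.74) came first and did not differ beyond their spread, followed by Des (15.4 ± 2.21), Tagln (8.03 ± 1.86) and then Cspg4, Notch3, Ren1 and Rgs5, each overlapping its neighbour, from 1.65 down to 0.244. In knockout endothelium Mcam (52.1 ± 15.1) stood above Gata3 (24.2 ± 1.64). Wild-type podocytes had Tagln first (152 ± 38.0), then Gata3 (42.6 ± 1.69), Ren1 (33.2 ± 45.4) and Des (30.6 ± 4.37), which overlapped in turn, then Mcam (11.7 ± 0.0666), Cspg4 (3.47 ± 0.296), Notch3 (1.96 ± 0.664) and Rgs5 (0.580 ± 0.196). In knockout podocytes Tagln (165 ± 54.6) was again first, followed by Ren1 (70.6 ± 73.8), Gata3 (29.6 ± 14.5) and Des (25.4 ± 9.24), each overlapping the next. Tagln thus moved from the middle of the order in endothelium to its top in podocytes. By mean Rgs5 was last in all 4 groups, and in knockout podocytes its range overlapped that of Notch3.

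The 2 libraries of a knockout group differed in the same direction for all 8 genes. In knockout podocytes every gene was higher in replicate 2 than in replicate 3, by 1.61-fold for Tagln to 6.67-fold for Ren1, with a median log2 difference of 1.02. Over all genes tested, 48.5% were higher in replicate 2 of that pair, with a median of −0.02. In knockout endothelium all 8 were again higher in replicate 2, by 1.10-fold for Gata3 to 2.34-fold for Tagln (median log2 difference 0.58), where 53.4% of all genes were and the median was 0.04. In each wild-type pair 4 of the 8 genes were higher in replicate 2, where 58.2% of all genes were in endothelium and 47.5% in podocytes. The share of counts from mitochondrial genes, a sign of RNA quality, was lower in replicate 2 of all 4 pairs, at 10.1% against 19.6% in knockout endothelium, 12.9% against 22.2% in knockout podocytes, 13.3% against 26.2% in wild-type endothelium and 12.2% against 16.9% in wild-type podocytes. Its part in the difference between replicates was not tested.

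Replicate 2 of knockout podocytes stood at the top for Ren1, Tagln, Rgs5, Notch3 and Cspg4, 5 of the 8 genes, where 13.8% of all genes tested had their highest value. Of the 24 other contractile, pericyte and mesangial genes tested, 13 were highest in that library too, among them Cnn1, Heyl, Cox4i2, Synpo2 and Ednra. Itga8 and Sfrp2 were instead highest in replicate 2 of wild-type endothelium (482 and 230 CPM), against 455 and 152 CPM in replicate 2 of knockout podocytes. Of the proximal tubule genes, Lrp2 stood at 183 CPM there, against 39.4 to 104 CPM in the other libraries, and the 5 tested tubule genes summed to 2143 CPM, against 207 to 769 CPM. The 6 tested parietal epithelial markers summed to 1198 CPM there, against 169 to 692 CPM. Pax8 made 626 CPM of that sum, while Krt8 (160 CPM) and Krt18 (116 CPM) stood higher in replicate 3 of wild-type podocytes (176 and 146 CPM). In replicate 2 of knockout podocytes the distal tubule and collecting duct genes summed to 6173 CPM, against 6180 to 13020 CPM in the other podocyte libraries. The sum over 6 podocyte markers in replicate 2 of knockout podocytes, 7915 CPM, was the lowest of the 4 podocyte libraries, which otherwise ran from 10370 to 17240 CPM. The part of other cells in the mural values of this library was not tested.

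**Figure D4:**
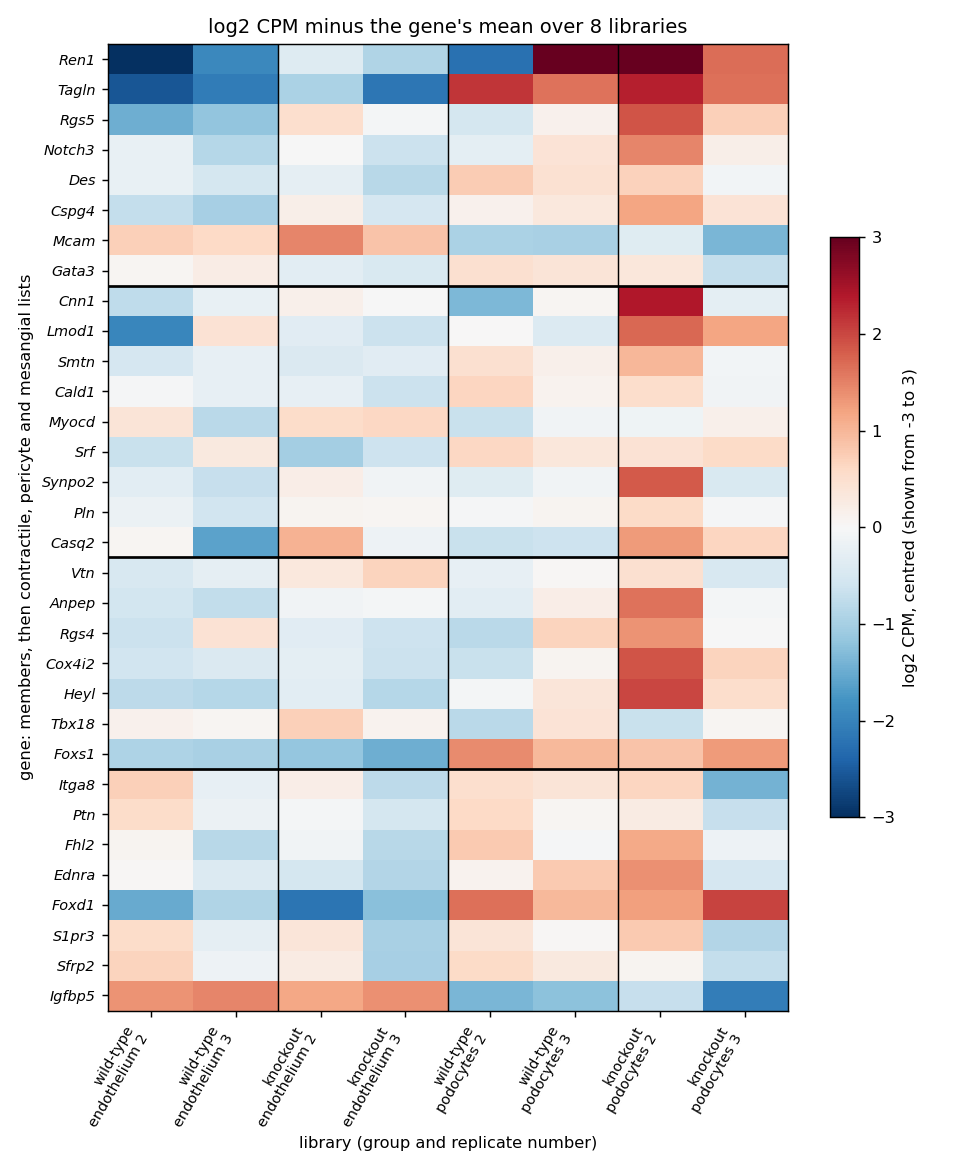
Log2 CPM of the 8 genes and of the other tested contractile, pericyte and mesangial genes, each centred on its mean over the 8 libraries, with red for higher and blue for lower; colors stop at −3 and 3. The column of knockout podocytes replicate 2 is red for Ren1, Tagln, Rgs5, Notch3 and Cspg4 and for most contractile and pericyte genes, while Mcam and Igfbp5 are red in the 4 endothelial columns.

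Emcn loss was then compared within each sort, and 0 of the 8 genes passed in either. In endothelium 6 of the 8 log2 differences were positive, from 2.15 for Ren1 (SE 1.53, with 1.38 without replicate 2 and 3.91 without replicate 3 of wild-type endothelium) down to −0.54 for Gata3, with a median of 0.63 beside 0.01 over all genes tested. Without replicate 2 of knockout endothelium, an alternative chosen after seeing the data, 5 were positive, with a median of 0.17. In the same comparison all 17 tested dissociation genes were negative, with a median of −0.64, as were all 7 distal tubule and collecting duct genes, with a median of −1.08, and 0 of either list passed. Their part in the values of the 8 genes was not tested. Of all genes, 0.00607% passed there, which is Emcn alone. At an unadjusted p under 0.05, edgeR counted 2 of the 8 (Tagln and Rgs5), where 5.49% of all genes were, and DESeq2 and limma voom passed 0 of the 8 after adjustment. The knockout libraries lay above both wild-type ones for Ren1, Rgs5, Cspg4 and Mcam, where 24.8% of all genes did, and below them for Gata3, where 19.7% of all genes did.

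In podocytes 6 of the 8 differences were again positive, with a median of 0.41 beside 0.02 over all genes tested. Without replicate 2 of knockout podocytes 3 were positive, with a median of −0.34. In the same comparison all 5 proximal tubule genes (median 0.99) and 5 of 6 parietal genes (median 0.71) were positive and all 6 podocyte markers negative (median −0.59), and 0 of them passed. Without that library those medians were −0.21, −0.07 and −0.37. Their part in the podocyte values of the 8 genes was not tested. At an unadjusted p under 0.05, edgeR counted 1 of the 8 (Rgs5), where 4.43% of all genes were, 0.00607% of all genes passed after adjustment, and DESeq2 and limma voom passed 0 of the 8. Both knockout libraries lay above both wild-type ones for Rgs5 and Cspg4, where 15.1% of all genes did, and below them for Gata3, where 16.0% of all genes did. Without replicate 2 of knockout podocytes, the log2 difference went from 1.09 to −0.86 for Ren1, from 0.12 to −0.27 for Tagln, from 0.19 to −0.41 for Mcam, from 0.86 to 0.06 for Notch3 and from 0.63 to 0.19 for Cspg4.

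Rgs5 had the largest genotype difference relative to its error. It was 3.17-fold higher in knockout endothelium (log2 difference 1.67, SE 0.59, edgeR adjusted p = 0.716) and 3.08-fold higher in knockout podocytes (1.62, SE 0.56, edgeR adjusted p = 0.978), and neither passed. Every knockout library lay above both wild-type libraries of its sort. Leaving out 1 library at a time gave values from 1.34 to 1.91 in endothelium and from 0.90 to 2.10 in podocytes. In podocytes the value without replicate 2 of the knockout was 0.90. A contrast of the mean effect over both sorts, added after the counts were seen, gave 1.65 (SE 0.41, unadjusted p = 0.00224, edgeR adjusted p = 0.558), and 0 of the 8 genes passed in it, with 3 at an unadjusted p under 0.05 (Rgs5, Cspg4 and Gata3), where 8.59% of all genes were. DESeq2 and limma voom passed 0 of the 8 in that contrast too.

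Gata3 was the 1 gene with both knockout libraries below both wild-type ones in each sort, and it did not pass. The log2 difference was −0.54 (SE 0.30, edgeR adjusted p = 0.716) in endothelium and −0.53 (SE 0.30, edgeR adjusted p = 0.978) in podocytes. The podocyte value was −1.14 without replicate 2 and −0.10 without replicate 3 of the knockout. Cspg4 differed by 0.73 (SE 0.33, edgeR adjusted p = 0.716) and 0.63 (SE 0.33, edgeR adjusted p = 0.978). Tagln differed by 0.90 (SE 0.40, edgeR adjusted p = 0.716) in endothelium, and by 0.15 without replicate 2 of the knockout, its highest endothelial library. Cspg4 in the same fit went to 0.35 and Notch3 from 0.21 to −0.15.

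The genotype effect was not shown to differ between the sorts for any of the 8 genes. In this interaction 0 of the 8 passed and 0 had an unadjusted p under 0.05 by edgeR, where 0% and 2.60% of all genes did, and DESeq2 and limma voom passed 0. The terms (endothelial effect less podocyte effect) ran from −0.65 (SE 0.65) for Notch3 to 1.06 (SE 1.95) for Ren1. Both turned sign in other fits: Ren1 to −3.81 without replicate 3 of wild-type podocytes and to −0.04 with limma voom, and Notch3 to 0.14 without replicate 2 of knockout podocytes. Among the wider lists 0 genes passed in either genotype comparison: for the 11 tested pericyte genes, 9 were positive in each sort, with medians of 0.36 in endothelium and 0.73 in podocytes. Without replicate 2 of the knockout those medians were −0.01 (5 positive) and 0.06 (7 positive). Rgs5, Notch3, Cspg4 and Mcam are themselves on the pericyte list, and each was positive in both sorts in the main fit. For the 11 mesangial genes 1 and 4 were positive, with medians of −0.50 and −0.20, and without replicate 2 of the knockout 0 and 2 were, with medians of −0.62 and −1.0. Des and Gata3 are on the mesangial list, and each was negative in both sorts in the main fit.

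The genes whose levels ran closest to each of the 8 were found by the root mean square difference of centred log2 CPM over the 8 libraries, which share depth, sort and genotype, and they are named as a description. Tagln was nearest to Ogn (0.17), a small matrix proteoglycan, and Igfbp6 (0.27). Ogn stood at 64.3, 43.7, 80.8 and 40.1 CPM in the podocyte libraries and at 2.13 to 6.91 CPM in the endothelial ones. Rgs5 was nearest to Susd5 (0.23) and to the water channel Aqp1 (0.29), which stood at 126 and 221 CPM in wild-type and 518 and 311 CPM in knockout endothelium, and at 228 and 279 CPM in wild-type and 1084 and 428 CPM in knockout podocytes. Aqp1 is expressed by the proximal tubule as well as by vessels, and it was on the tubule list.

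Mcam was nearest to Plxnd1 (0.15), an endothelial semaphorin receptor, and to Crnde (0.17). Cspg4 was nearest to Pdlim3 (0.20) and Steap1 (0.22), Notch3 to Acot4 (0.21) and Fads2 (0.22), Des to Arhgap1 and Sec31a (0.11 each), and Gata3 to Hnrnpll (0.12) and Fbxw11 (0.14). No gene ran close to Ren1, whose nearest was Or51e1 (1.43). Among the 8 genes themselves, Notch3 and Cspg4 were the closest pair (0.28), followed by Des and Gata3 (0.42) and by Des and Cspg4 (0.46), and Ren1 and Mcam were the farthest apart (3.35).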

How the data were processed

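Polyadenylated RNA from sorted mouse kidney cells was sequenced with an Illumina TruSeq protocol, per the labels. The deposited table holds whole-number counts by Entrez gene and has 1 column per alignment file, per the file headers. The submitters' processing notes name mm10 and DESeq2, with no role given, and the aligner and counting tool were not given in the sources used here. Of 22533 gene lines, 17326 held all 8 counts and 5207 (23.11%), with a comma in the description, held fewer and were not analysed. In 3 of the deposited columns those short lines leave empty or unreadable cells, so a reading of the whole column recorded other values than counts. On complete lines, the only ones analysed, all values were whole-number counts.

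The deposited counts were analysed with edgeR 4.0.16 (R 4.3.3): filterByExpr by group, TMM scaling, 1 mean per group over all 8 libraries, the quasi-likelihood F test and Benjamini-Hochberg adjustment over 16477 genes, threshold 0.05. Each standard error was taken as the size of the log2 difference over the root of its F statistic. CPM used TMM-scaled library sizes, and log2 CPM a prior count of 2. Exon lengths came from GENCODE M21, gene positions and promoters from RefSeq (GRCm38.p6). Groups and replicate numbers came from the titles. The other tests were DESeq2 1.42.0 and limma 3.58.1 (voom). The fit was first checked on simulated data. The genes, the lists and the tests were chosen with earlier results of these data known. The text names the 8 genes, of 6 related lists the genes past the threshold and the 2 of smallest p, the 2 genes nearest to each of the 8, and cell-type markers. Other genes named in those lists (Cnn1, Lmod1, Mas1, Plec, Itga8, Ptn, Sfrp2, Cox4i2, Synpo2, Ednra, Miox, Lrp2, Aqp2, Dcn, Lum, Pi16, Pax8, Krt8, Krt18, Csf1r and Pcsk7) were chosen after their values were seen. Some genes that this rule names are not reported here.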

Additional observations from a re-analysis of the deposited data

How the results depend on the processing

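Across alternatives, single-gene results kept their direction and side of the threshold in 818 of 876 values, 16 turned sign, 7 lost and 35 gained a call. The count of the 8 genes past the threshold between sorts (both genotypes, 5) was 3 with scaling by library size only, 4 with limma voom and 7 with DESeq2. Within wild type (2) it was 4 with the replicate block, 4 with only the libraries compared and 5 at an adjusted p under 0.10, and ran from 1 to 5 when 1 library was left out. Within knockout (2) it was 4 with the replicate block and 4 at an adjusted p under 0.10, and ran from 2 to 6 when 1 library was left out. In the genotype comparisons and the interaction the count was 0 throughout. The replicate number was no stated pairing: same-numbered libraries deviated together by correlations across genes of 0.19 (endothelium) and 0.16 (podocytes) between genotypes, and −0.13 (wild type) and 0.11 (knockout) between sorts. With the replicate block Notch3 passed between sorts (−0.96), and with the podocyte numbers crossed, chosen after seeing the data, 5 of the 8 genes passed over both genotypes and 2 within each.

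The values that turned sign had not passed the threshold in the first place. In endothelium the genotype value of Des was 0.18 with library size only and 0.01 with a mean of at least 5 CPM, and over both sorts 0.01 with library size only. The Ren1 interaction was −0.04 with limma voom. Leaving out 1 library gave ranges of −0.50 to 0.02 (Gata3 between sorts), −0.73 to 0.31 (Gata3 between sorts, knockout), −0.15 to 0.56 (Notch3, endothelium, genotype), −0.47 to 0.09 (Des, endothelium, genotype), −0.27 to 0.43 (Tagln, podocytes, genotype), −0.86 to 5.94 (Ren1, podocytes, genotype), −0.41 to 0.60 (Mcam, podocytes, genotype), −0.70 to 0.06 (Des, podocytes, genotype), −3.81 to 2.99 (Ren1, interaction) and −1.16 to 0.14 (Notch3, interaction). Scaling by library size only moved the median of all genes by up to 0.33 (log2, genotype in endothelium). Over all genes, calls by genotype in endothelium were 1, and 0 to 4 elsewhere, the highest with DESeq2; in podocytes 1, and 0 to 8; over both sorts 1, and 1 to 14. Calls between sorts fell from 1481 to 769 within wild type without its podocyte replicate 2, and from 1709 to 960 within knockout without its endothelial replicate 2. The lowest levels rest on few reads (5 counts of Ren1 and 13 of Rgs5 in wild-type endothelium replicate 2), and Rgs5 has no value with a mean of at least 5 CPM, which removes it. The causes of these shifts were not tested.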
